A study of Rattus norvegicus with 12 samples.

Results

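Asns, Psat1, Phgdh, Psph, Shmt2, Mthfd2, Aldh18a1, Slc3a2, Slc7a5 and Slc7a11 encode enzymes that make amino acids or one-carbon units and carriers that import amino acids. All are known targets of the transcription factor ATF4. These 10 genes were taken by symbol from the 34034 symbols of the count table, and 9 of them, all but Phgdh, passed the filter on low counts that left 14324 genes for testing.

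INS-1E is an insulin-secreting line from a rat insulinoma that serves as a β-cell model. Its RNA was sequenced in 12 libraries, 3 in each of 4 groups. Untreated cells received no cytokine. IL-1βlow cells received interleukin-1β at 10 pg/ml for 72 h, renewed every 24 h. CYT cells received 100 pg/ml IL-1β together with 5 ng/ml interferon-γ for 16 h, and IL-1βlow + CYT cells received the low dose, then new medium, then this challenge. Every group was the wild-type line grown with 11 mM glucose, 2 mmol/l glutamine and 50 μmol/l 2-mercaptoethanol, so the results concern 1 tumour-derived line. The labels number biological replicates 1 to 3 within a group and do not say which cultures were grown together.

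ATF4 accumulates when a stress kinase phosphorylates the initiation factor eIF2α, which lowers translation in general but favours translation of the Atf4 transcript. ATF4 then binds response elements in genes that restore amino acid supply. β-cells translate large amounts of proinsulin and draw heavily on that supply.

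Libraries held 15812640 to 20246806 counts (median 17461925.5). Levels are TMM-scaled counts per 1e+06 reads (CPM), which do not account for transcript length, so different genes were not ranked by level. At this depth 3 counts corresponded to 0.148 to 0.190 CPM. All 9 β-cell markers examined were measured in every group, with a summed level of 42998 to 49807 CPM in untreated, 38345 to 44899 in IL-1βlow, 14038 to 14970 in CYT and 20108 to 25655 in IL-1βlow + CYT libraries. Immune markers summed to between 0.473 and 1.25 CPM with Ptprc at 0 in every library. Fibroblast markers summed to 12.1 to 16.2 CPM in untreated, 12.8 to 14.9 in IL-1βlow, 6.004 to 7.11 in CYT and 7.96 to 10.6 in IL-1βlow + CYT libraries, with Dcn at 0 in every library. Markers of other islet endocrine cells summed to 187 to 368, 157 to 260.3, 25.4 to 64.9 and 74.4 to 152 CPM in the same order of groups. Exocrine and endothelial markers stayed at or below 0.304 CPM. The sums of the β-cell, other endocrine and fibroblast lists thus moved with the challenge, but not every gene followed its sum. Gcg made up nearly all of the other endocrine sum and Pdgfra most of the fibroblast sum. Col1a1, a fibroblast marker, was at least 3.20-fold higher with CYT than the 3-count floor per untreated library. Slc2a2, a β-cell marker, was at 394 to 492 CPM untreated and 352 to 471 CPM with CYT. The part of these lists in the results below was not tested. Fewer cells of a type and less RNA per cell cannot be told apart in bulk RNA.

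A change passed when edgeR's quasi-likelihood test gave an adjusted p under 0.01 and the log2 fold change exceeded 1 in size, or 0.6 for IL-1βlow against untreated cells. P-values were adjusted by Benjamini-Hochberg over all 14324 genes. Values after ± are SD over n = 3 libraries, and SE is the standard error of a log2 fold change.

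Upstream sequence is shown for 4 members, the enzymes Asns and Mthfd2 and the carrier subunits Slc3a2 and Slc7a5. Members that moved together were searched for a shared element. The 4 are not those with the largest rises with CYT, since Psph and Shmt2 rose more than Asns and Slc7a5. Slc7a5 is the only member with a match to the letters marked below. Each line holds the 250 bases before the start site from RefSeq on GRCr8, 5′ to 3′ along the gene. Capitals mark a match to TGATG or its reverse complement, the first letters of the element that ATF4 binds. Slc3a2 has another RefSeq start site, with its 250 bases at chr1:215039671-215039920 on the minus strand, which hold no match and are not printed.
Asns (chr4:36769416-36769665, minus strand): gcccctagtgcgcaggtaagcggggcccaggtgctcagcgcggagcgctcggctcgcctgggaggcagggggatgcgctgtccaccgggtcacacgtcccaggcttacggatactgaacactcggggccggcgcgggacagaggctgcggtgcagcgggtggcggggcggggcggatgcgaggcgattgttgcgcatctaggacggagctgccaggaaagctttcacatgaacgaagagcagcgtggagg
Mthfd2 (chr4:117380351-117380600, minus strand): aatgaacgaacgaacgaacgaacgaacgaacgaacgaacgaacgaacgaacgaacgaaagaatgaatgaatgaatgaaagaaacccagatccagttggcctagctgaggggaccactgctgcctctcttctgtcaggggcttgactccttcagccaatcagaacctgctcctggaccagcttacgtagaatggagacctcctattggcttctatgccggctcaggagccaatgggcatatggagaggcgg
Slc3a2 (chr1:215048065-215048314, minus strand): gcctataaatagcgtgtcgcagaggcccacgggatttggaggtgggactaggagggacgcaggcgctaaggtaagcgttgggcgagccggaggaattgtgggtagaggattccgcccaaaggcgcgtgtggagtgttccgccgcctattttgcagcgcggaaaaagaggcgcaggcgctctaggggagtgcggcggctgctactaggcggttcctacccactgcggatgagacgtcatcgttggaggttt
Slc7a5 (chr19:66872413-66872662, minus strand): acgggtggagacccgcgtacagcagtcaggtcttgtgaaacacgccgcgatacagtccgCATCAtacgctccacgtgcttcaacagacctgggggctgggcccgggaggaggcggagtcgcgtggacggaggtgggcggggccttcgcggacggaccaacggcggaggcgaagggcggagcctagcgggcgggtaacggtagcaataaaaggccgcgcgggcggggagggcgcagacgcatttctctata

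The 8-letter core of that element, TGATGNAA, was searched on both strands from 250 bases before to 50 after each RefSeq start site. Of the members, 9 had a promoter in the table (all but Aldh18a1) and 0 of these 9 held the core, against 1332 of all 33469 windows (3.98%). TGATG, which the core contains, was present for 1 of 9 members (11.1%) and in 40.1% of all windows. That match was in Slc7a5, 191 bases before the start and on the minus strand. No match says only that these letters are not in the window. Among related genes, the core was present for 5 of 15 in a list of ATF4 and its further targets (33.3%). It was present for 3 of 25 other amino acid carriers and 2 of 29 other amino acid and folate enzymes. These counts are of genes with a match in any window, while the 3.98% is of single windows. Fgf21 held the core but was below the filter, with 3 to 6 counts in untreated and 2 to 4 in CYT libraries. Ppp1r15b, a gene of the eIF2α list described below, held it and did not pass with CYT. Got1 and Slc38a1 held the core and were higher with CYT, but did not pass and are not printed. Got1 was at 71.0 to 83.7 CPM untreated and 126 to 145 CPM with CYT, Slc38a1 at 65.0 to 69.0 and 101 to 111 CPM. The 7 genes with the core that passed as higher with CYT are printed below, with their core in capitals and up to 16 bases on each side.
Slc7a1 (chr12:11664442-11664481, plus strand): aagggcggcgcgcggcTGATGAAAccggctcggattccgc
Slc1a4 (chr14:98761774-98761812, minus strand): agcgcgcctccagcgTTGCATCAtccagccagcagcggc
Pycr1 (chr10:106420920-106420959, minus strand): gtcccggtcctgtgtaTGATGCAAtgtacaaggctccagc
Trib3 (chr3:161275531-161275570, minus strand): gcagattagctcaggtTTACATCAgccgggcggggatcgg
Chac1 (chr3:126795948-126795987, plus strand): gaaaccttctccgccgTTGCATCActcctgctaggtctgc
Nupr1 (chr1:190645933-190645972, minus strand): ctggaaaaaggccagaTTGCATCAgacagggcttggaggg
Jdp2 (chr6:110993559-110993598, plus strand): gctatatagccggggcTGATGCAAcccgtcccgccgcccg

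Slc7a1, Slc1a4 and Pycr1 are amino acid genes, Trib3, Nupr1 and Jdp2 encode stress regulators, and Chac1 encodes an enzyme that degrades glutathione. The match lay 30 bases before the start in Slc7a1, 235 in Slc1a4, 131 in Pycr1, 21 in Trib3, 167 in Chac1, 55 in Nupr1 and 16 in Jdp2. These 7 were chosen after their values were seen, and a match is a description of letters, not of binding.

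The first question was what the CYT challenge did to these genes in cells that had not been preconditioned. Of the 9 measured members, 8 rose and Slc7a11 did not pass. The background was 10.0% of genes higher and 11.6% lower in this comparison. The median log2 fold change of the 9 was 1.63, against -0.04 over all genes tested. Mthfd2 and Slc3a2 had the largest values and Aldh18a1 the smallest.

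Asns makes asparagine from aspartate and glutamine. Its level was 117, 123 and 127 CPM in the untreated libraries and 385, 391 and 364 CPM in the CYT libraries. In IL-1βlow libraries it was 116, 120.2 and 128 CPM, and in IL-1βlow + CYT libraries 132, 154 and 139.8 CPM. The CYT libraries stood well above the other 9, and the untreated and IL-1βlow libraries overlapped. The log2 fold change with CYT was 1.63 (SE 0.080, adjusted p = 6.2e-10), a 3.10-fold rise from 123 ± 4.83 to 380.1 ± 14.0 CPM.

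Serine is made from the glycolytic intermediate 3-phosphoglycerate by Phgdh, Psat1 and Psph in turn. Phgdh, the entry enzyme, was listed with 0 counts in all 12 libraries. Gpx1, Ldha, Bcat1, Eif4ebp1 and Stc2, which were looked up after the zero was seen, were likewise at 0 in all 12 libraries, although Gpx1 and Ldha are used by most cells. RefSeq lists 6 pseudogenes of Phgdh on GRCr8, none of which is in the count table. The reason for the zeros was not tested, and no value is given for Phgdh.

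Psat1, the transaminase of the middle step, was at 60.3, 61.0 and 57.4 CPM in untreated libraries and 166, 198 and 179.5 CPM in CYT libraries. It was at 58.8, 64.5 and 71.4 CPM with IL-1βlow alone and 59.6, 72.3 and 60.4 CPM with IL-1βlow + CYT. The 3 CYT libraries were again the highest 3 and the other groups overlapped. Its log2 fold change with CYT was 1.60 (SE 0.10, adjusted p = 8.5e-09).

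Psph, the phosphatase that releases serine, was at 18.8, 24.6 and 21.9 CPM untreated and 78.2, 89.2 and 75.1 CPM with CYT. It was at 21.6, 26.6 and 24.4 CPM with IL-1βlow and 22.7, 24.6 and 22.0 CPM with IL-1βlow + CYT. Only the CYT libraries left the range of the rest, and the rise was 1.89 on the log2 scale (SE 0.12, adjusted p = 7.0e-09). Both measured serine enzymes therefore rose while their entry enzyme could not be followed.

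Shmt2 and Mthfd2 act in mitochondria, where Shmt2 splits serine into glycine and a one-carbon unit and Mthfd2 oxidises the folate that carries it. Shmt2 was at 81.2, 78.6 and 84.8 CPM untreated, 92.0, 88.8 and 85.7 CPM with IL-1βlow, 247, 292 and 256 CPM with CYT and 97.6, 108 and 97.1 CPM with IL-1βlow + CYT. Its rise with CYT was 1.70 on the log2 scale (SE 0.084, adjusted p = 6.6e-10). The IL-1βlow + CYT libraries sat between the CYT libraries and all others and overlapped neither. RefSeq places Shmt2 over Ndufa4l2 on GRCr8, and the strand setting of the counting is not given in the sources used here, so reads of the pair may be mixed.

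Mthfd2 was at 39.8, 48.1 and 42.1 CPM in untreated libraries, at 39.7, 46.3 and 47.0 CPM with IL-1βlow and at 246, 305 and 299 CPM with CYT. In IL-1βlow + CYT libraries it was at 53.9, 66.5 and 61.2 CPM, above every untreated and IL-1βlow library and far below every CYT library. With CYT it rose by 2.71 on the log2 scale (SE 0.12, adjusted p = 1.9e-10), or 6.54-fold, the largest change among the members. Its isozyme Mthfd2l, noticed after its values were seen, had at most 1 count in untreated and 0 in IL-1βlow libraries but 20, 17 and 26 counts with CYT, at least 6.41-fold higher in CYT than the 3-count floor per untreated library, and 4, 12 and 8 counts with IL-1βlow + CYT.

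Aldh18a1 starts proline synthesis from glutamate. It was at 134, 152 and 157 CPM untreated, 146, 169.97 and 149.97 CPM with IL-1βlow, 308, 328 and 275 CPM with CYT and 143, 168 and 141 CPM with IL-1βlow + CYT. The CYT group did not overlap the others, but the rise of 1.04 (SE 0.10, adjusted p = 6.6e-07) lay close to the minimum of 1. It no longer exceeded that minimum without untreated replicate 1 (0.98) or without CYT replicate 2 (0.98). RefSeq lists 2 small genes that overlap Aldh18a1 on GRCr8.

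Slc3a2 and Slc7a5 form the heavy and light chains of LAT1, which exchanges glutamine for leucine and other large neutral amino acids. Slc3a2 was at 171, 187 and 177 CPM untreated, 167, 192 and 172 CPM with IL-1βlow, 674, 753 and 746 CPM with CYT and 141, 169 and 144 CPM with IL-1βlow + CYT. It rose 4.06-fold with CYT (log2 2.02, SE 0.092, adjusted p = 3.1e-10), and every IL-1βlow + CYT library lay below every untreated one.

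Slc7a5 was at 188, 237 and 210.3 CPM untreated, 198, 251 and 222 CPM with IL-1βlow, 502, 718 and 633 CPM with CYT and 162, 224 and 156 CPM with IL-1βlow + CYT. Its rise was 1.55 on the log2 scale (SE 0.16, adjusted p = 1.0e-06). The 3 CYT libraries were spread more widely than for Slc3a2, 618 ± 109 CPM against 724 ± 43.6 CPM, and still overlapped no other group.

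Slc7a11 joins the same heavy chain to form the cystine-glutamate exchanger xCT, which feeds glutathione synthesis. It was close to the detection limit, with 14, 31 and 35 counts in untreated libraries, 23, 25 and 30 with IL-1βlow, 85, 54 and 55 with CYT and 7, 27 and 32 with IL-1βlow + CYT. In CPM the groups were at 1.59 ± 0.696, 1.52 ± 0.336, 3.53 ± 0.961 and 1.22 ± 0.745. The CYT libraries were the highest 3, and the log2 difference from untreated cells was 1.15 (SE 0.41, adjusted p = 0.024), which did not pass. Of 20 alternatives, 15 left this difference not passing, and leaving out 1 library lowered it to as little as 0.84. It passed without IL-1βlow + CYT replicate 1, the library with 7 counts (1.17, adjusted p = 0.0087), and with the replicate number as a block (1.23, adjusted p = 0.00998). It also passed with only the 2 groups compared (1.18, adjusted p = 0.0077), without the filter on low counts (1.22, adjusted p = 0.00023) and at an adjusted p under 0.05 without fold minimum.

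**Figure D1:**
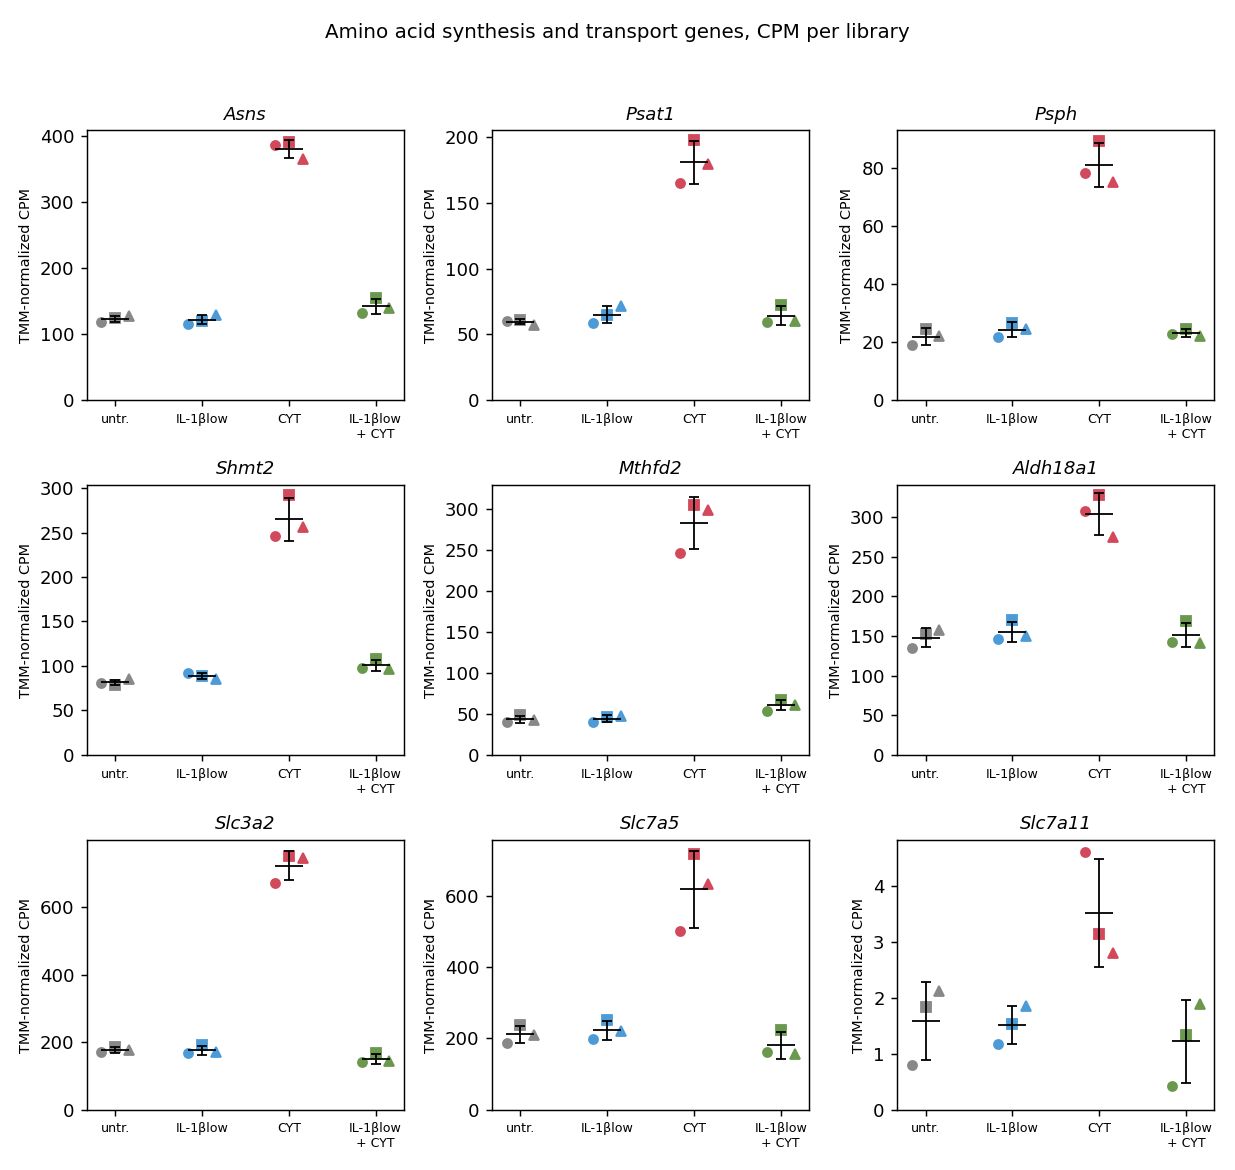
Each panel plots one of the 9 measured members, with TMM-normalized CPM on the y axis from 0 and the 4 groups on the x axis; circles, squares and triangles are replicates 1, 2 and 3, and the line and bars are mean and SD (n = 3). In every panel the 3 CYT libraries are the highest, for Mthfd2 at 246 to 305 CPM against 39.7 to 66.5 CPM in the other 9 libraries. The share of all genes so separated was not counted.

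IL-1βlow on its own was compared with untreated cells to see whether preconditioning changed these genes before any challenge. None of the 9 passed in either direction by edgeR's quasi-likelihood test, 0 had an unadjusted p under 0.05, and DESeq2's Wald test and edgeR's exactTest also called 0. The background was 0.265% of genes higher and 0.168% lower. Log2 fold changes lay between -0.07 (Slc7a11) and 0.15 (Psph), with adjusted p from 0.50 to 0.97. The 95% interval ran from -0.18 to 0.15 for Asns, from -0.21 to 0.28 for Mthfd2 and from -0.20 to 0.18 for Slc3a2, so a change of the size seen with CYT lay outside each. For Slc7a11 it ran from -1.01 to 0.88 and held little information.

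The next comparison asked how the challenge read out in preconditioned cells, as IL-1βlow + CYT against CYT. All 9 measured members fell. The background was 5.92% of genes lower and 6.54% higher. Their median log2 fold change was -1.51, and that of all genes 0.02. Slc3a2 fell by 2.26 (SE 0.093, adjusted p = 1.7e-09), from 724 ± 43.6 to 151 ± 15.3 CPM, and Mthfd2 fell by 2.23 (SE 0.11, adjusted p = 1.0e-08), from 283 ± 32.1 to 60.6 ± 6.33 CPM. For both, little more than 0.2 of the CYT level was reached, with folds of 0.209 and 0.214.

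The other serine, folate and asparagine enzymes fell too, with smaller estimates. The decrease was 1.81 for Psph (adjusted p = 5.4e-08), 1.50 for Psat1 (adjusted p = 7.5e-08), 1.42 for Asns (adjusted p = 1.8e-08) and 1.39 for Shmt2 (adjusted p = 2.5e-08), all on the log2 scale. The carrier subunit Slc7a5 fell by 1.77 (adjusted p = 7.7e-07). In each of these genes the highest IL-1βlow + CYT library lay below the lowest CYT library, a separation whose share over all genes was not counted.

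Aldh18a1 and Slc7a11 were the least secure of the 9. Aldh18a1 fell by 1.01 (adjusted p = 2.1e-06) and went under the minimum without CYT replicate 2 (-0.95) or IL-1βlow + CYT replicate 3 (-0.96), or with library totals in place of TMM factors (-0.99). Slc7a11 fell by 1.51 (SE 0.42, adjusted p = 0.0080). It did not pass without untreated replicate 2, IL-1βlow replicate 1 or 2, CYT replicate 1 or 2, or IL-1βlow + CYT replicate 1 or 2, nor with only the 2 groups compared, and its adjusted p reached 0.034 without CYT replicate 1.

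**Figure D2:**
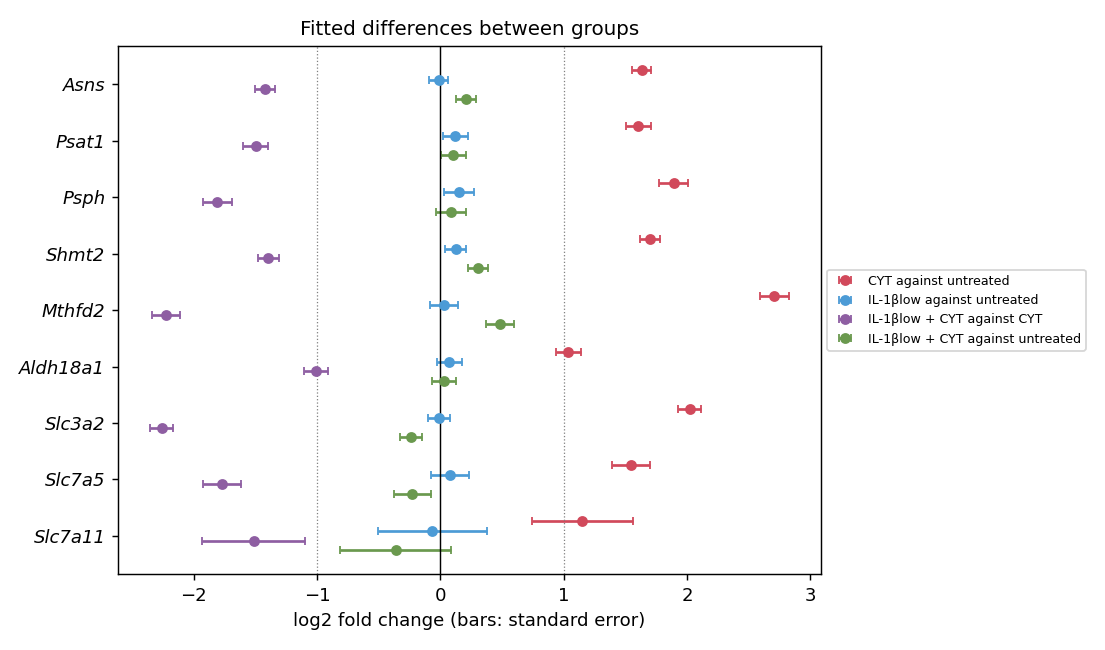
Log2 fold changes (x axis) with standard errors (bars) for the 9 measured members (y axis) in 4 comparisons, with dotted lines at -1 and 1. CYT against untreated cells lies to the right for every gene (1.04 to 2.71), IL-1βlow + CYT against CYT to the left (-2.26 to -1.01), and the other 2 comparisons lie around 0.

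IL-1βlow + CYT cells were also set against untreated cells, to see what remained of the response. None of the 9 passed (background 3.85% higher and 2.14% lower), although by edgeR's test 4 had an unadjusted p under 0.05 and 1 an adjusted p under 0.01. That 1 was Mthfd2 at 0.48 (SE 0.11, adjusted p = 0.0062), a 1.40-fold difference below the fold minimum, and Shmt2 followed with 0.31 (adjusted p = 0.015) and Asns with 0.21 (adjusted p = 0.073). Slc3a2 was at -0.24 (adjusted p = 0.075), Slc7a5 at -0.23 (adjusted p = 0.32) and Slc7a11 at -0.36 (adjusted p = 0.61). The values of Psat1, Psph and Aldh18a1 were between 0.03 and 0.11, and the sign of Psph, Aldh18a1 and Slc7a11 changed when 1 library was left out (untreated replicate 1, or IL-1βlow + CYT replicate 1 or 2). For Asns, Shmt2 and Mthfd2 every IL-1βlow + CYT library lay above every untreated library, and for Slc3a2 every one lay below. Such separation cannot go below p = 0.1 in an exact permutation test of 3 against 3 libraries. Its share over all genes was not counted, so it adds no call.

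Against IL-1βlow cells, the challenge of preconditioned cells gave 0 members past the cut-offs (background 2.92% higher and 0.963% lower), with 4 of 9 at an unadjusted p under 0.05. Mthfd2 was at 0.45 (adjusted p = 0.015), Asns at 0.22 (adjusted p = 0.083) and Shmt2 at 0.18 (adjusted p = 0.19), while Slc7a5 was at -0.30 (adjusted p = 0.25) and Slc3a2 at -0.23 (adjusted p = 0.13). CYT cells against IL-1βlow cells had 7 members higher (background 9.24%). There Aldh18a1, at 0.96 (adjusted p = 1.5e-06), was under the fold minimum and Slc7a11, at 1.22 (adjusted p = 0.020), over the threshold for p, though it passed with the replicate number as a block (1.27, adjusted p = 0.0087). Of 20 alternatives, 14 left Slc7a11 not passing there. These comparisons share libraries with those above and are not separate evidence.

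Whether the response to CYT differed with preconditioning was tested as the interaction of IL-1βlow and CYT. It passed as lower for 8 of 9 members (background 5.20%), from -1.08 for Aldh18a1 (adjusted p = 6.6e-05) to -2.26 for Mthfd2 (adjusted p = 6.7e-07). For Slc7a11 it was -1.45 (SE 0.61, adjusted p = 0.077) and did not pass.

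In the order of group means CYT was highest for all 9 genes, and no neighbouring pair below CYT passed. The share of all genes with CYT highest was not counted. IL-1βlow + CYT was second for Asns, Shmt2 and Mthfd2, and last for Slc3a2, Slc7a5 and Slc7a11. The mean log2 level of the 9, taken relative to untreated cells, was 1.70 ± 0.083 with CYT, 0.032 ± 0.193 with IL-1βlow + CYT and 0.064 ± 0.108 with IL-1βlow, with an SD of 0.147 among untreated libraries. Single libraries ran from 1.65 to 1.79 in CYT and from -0.17 to 0.21 in the other 9.

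Atf4 itself was at 156, 176 and 174 CPM in untreated libraries, 159, 180.5 and 164 CPM with IL-1βlow, 668, 721 and 708 CPM with CYT and 169, 204 and 199 CPM with IL-1βlow + CYT. It rose by 2.05 with CYT (adjusted p = 2.6e-10) and fell by 1.87 in IL-1βlow + CYT against CYT (adjusted p = 9.0e-09). Its difference from untreated cells was -0.01 with IL-1βlow (adjusted p = 0.97) and 0.18 with IL-1βlow + CYT (adjusted p = 0.18). These are transcript levels, while ATF4 is controlled largely by translation, which was not measured here.

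**Figure D3:**
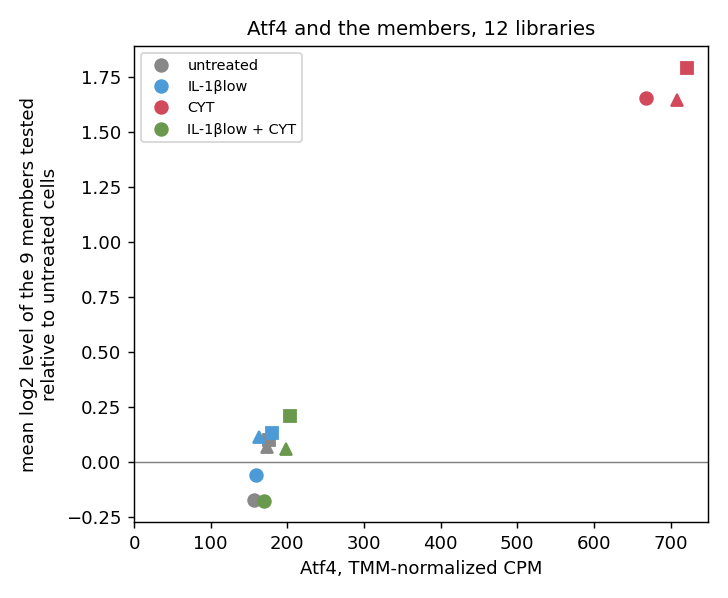
Atf4 level in TMM-normalized CPM (x axis) against the mean log2 level of the 9 measured members relative to untreated cells (y axis), 1 point per library, with colours for groups and circles, squares and triangles for replicates 1, 2 and 3. The 3 CYT libraries lie apart at 668 to 721 CPM and 1.65 to 1.79, and the other 9 lie together at 156 to 204 CPM.

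Because the CYT libraries lie apart, a correlation over the 12 libraries mostly restates that separation, and it is given as a description only. Pearson's r with the mean profile of the members was highest, among 11489 other genes with enough counts, for Slc7a1 (0.993), which imports arginine and lysine, Atf4 (0.992), Dcp1b (0.991), which acts in mRNA decapping, Ern1 (0.991), which encodes the endoplasmic reticulum stress sensor IRE1α, and Cars1 (0.990), the cysteinyl-tRNA synthetase. Such likeness was common, with 421 genes above 0.95. Between members, r ran from 0.660 to 0.994 over 36 pairs with a median of 0.970, and the closest pair was Asns and Mthfd2. Slc7a11 correlated least with the others.

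With the group means removed, the deviations of single libraries correlated between -0.05 (Shmt2 and Slc7a11) and 0.952 (Slc3a2 and Slc7a5) with a median of 0.550. The highest value thus belonged to the pair of LAT1 chains. In all 4 groups replicate 2 had the highest level of both chains. The same held for Psph and for the mean log2 level of the measured members, though not for Asns. The high replicate 2 was thus not particular to the LAT1 chains. Whether libraries of 1 number share a culture is not stated, and no p is given.

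The members were set beside other genes of the same functions. Of 39 further enzymes of amino acid and folate metabolism 33 were tested, and 10 rose and 4 fell with CYT, with a median log2 fold change of 0.50. Of 32 further carriers of the plasma membrane 24 were tested, and 7 rose and 3 fell, with a median of 0.37. Of 18 genes for ATF4 and its targets outside amino acid supply 15 were tested, and 13 rose and 0 fell, with a median of 3.02. In IL-1βlow + CYT against CYT, 6 of the enzymes fell and 4 rose (median -0.27), 5 of the carriers fell and 0 rose (median -0.19), and all 15 tested ATF4 genes fell (median -1.87). The same background shares apply as above.

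Among the enzymes, Ass1, which makes argininosuccinate for arginine recycling, rose from 18.3 ± 2.97 to 329 ± 19.9 CPM with CYT (log2 4.17, adjusted p = 2.2e-11). It fell by 2.21 in IL-1βlow + CYT against CYT (adjusted p = 2.0e-08), to 70.8 ± 8.60 CPM, and there still exceeded untreated cells by 1.95 (adjusted p = 6.1e-08). Gpt2, the mitochondrial alanine transaminase, rose by 2.58 (adjusted p = 6.4e-08) and fell by 2.20 (adjusted p = 7.4e-07). Pycr1, the last enzyme of proline synthesis, rose by 1.94 (adjusted p = 7.5e-07) and fell by 2.26 (adjusted p = 5.5e-07), from 39.5 ± 8.61 to 8.18 ± 1.90 CPM. Transcripts of both the first enzyme of proline synthesis, Aldh18a1, and the last were thus higher with CYT.

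Aldh1l2, a mitochondrial folate enzyme downstream of Mthfd2, was at 5.93 ± 1.37 CPM untreated, 10.3 ± 0.511 with IL-1βlow, 26.7 ± 4.86 with CYT and 11.98 ± 2.38 with IL-1βlow + CYT. It rose by 2.17 with CYT (adjusted p = 2.8e-07) and fell by 1.15 with preconditioning before CYT (adjusted p = 0.00012). With IL-1βlow alone it was 0.79 above untreated cells (adjusted p = 0.071), which did not pass. In IL-1βlow + CYT cells it exceeded untreated cells by 1.02 (adjusted p = 0.0014), where Mthfd2 did not pass. This difference between the 2 genes was not tested.

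Sds and Gpt fell with CYT and were higher in IL-1βlow + CYT than in CYT cells. Sds, which degrades serine, fell by 1.26 (adjusted p = 0.0081) and was higher by 1.39 with preconditioning (adjusted p = 0.0055), at levels of only 0.828 to 2.19 CPM. Gpt, the cytosolic alanine transaminase, fell by 1.07 (adjusted p = 0.00051) and was higher by 1.26 with preconditioning (adjusted p = 0.00018).

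Among the carriers, the cationic amino acid importer Slc7a1 went from 81.0 ± 4.79 CPM untreated to 378 ± 50.8 with CYT and 87.3 ± 14.6 with IL-1βlow + CYT (log2 2.22 and -2.11, adjusted p = 2.1e-09 and 2.2e-08). Slc6a9, a glycine carrier, rose by 2.84 (adjusted p = 1.3e-09) and fell by 2.70 (adjusted p = 1.6e-08). Slc1a2, a glutamate carrier, rose by 2.19 (adjusted p = 6.9e-07) and fell by 1.77 (adjusted p = 9.6e-06). These 3 rose with CYT and fell in IL-1βlow + CYT against CYT, as the LAT1 chains did. In IL-1βlow + CYT against untreated cells Slc7a1 was at 0.11, Slc6a9 at 0.15 and Slc1a2 at 0.43. There Slc3a2 was at -0.24 and Slc7a5 at -0.23, and none of these 5 differences passed.

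The 3 carriers that fell with CYT did not pass in IL-1βlow + CYT against CYT, by differences of unequal size. Slc16a10, which carries aromatic amino acids, fell with IL-1βlow alone, by 0.92 (adjusted p = 0.0013), from 127 ± 11.5 to 67.4 ± 7.05 CPM, and was the only listed carrier to pass there. With CYT it fell by 2.21 (adjusted p = 2.6e-09) to 27.5 ± 4.04 CPM, and IL-1βlow + CYT cells, at 34.8 ± 3.64 CPM, differed from CYT by 0.34 (adjusted p = 0.036). Slc7a8, the light chain of LAT2, which also pairs with Slc3a2, fell by 1.05 with CYT (adjusted p = 6.5e-07), from 119 ± 1.31 to 57.6 ± 8.95 CPM, and differed by 0.15 between IL-1βlow + CYT and CYT (adjusted p = 0.24). The LAT1 and LAT2 light chains thus moved in opposite directions with CYT. Slc7a10, another partner of Slc3a2, fell by 1.49 with CYT (adjusted p = 0.0038) from 1.59 ± 0.652 to 0.564 ± 0.270 CPM, and was at 1.38 ± 0.263 CPM with IL-1βlow + CYT, a log2 difference from CYT of 1.28 (adjusted p = 0.013) that did not pass.

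Of the wider ATF4 genes, Trib3 and Ddit3 encode regulators that feed back on the stress response and promote death, and Atf3 a related transcription factor. With CYT, Trib3 rose by 6.08 (adjusted p = 3.0e-09), Ddit3 by 4.52 (adjusted p = 1.1e-10) and Atf3 by 4.50 (adjusted p = 7.6e-11). In IL-1βlow + CYT against CYT Trib3 fell by 4.12 (adjusted p = 1.5e-07), Ddit3 fell by 3.42 (adjusted p = 1.0e-08) and Atf3 fell by 4.57 (adjusted p = 1.4e-09). In IL-1βlow + CYT cells Trib3 exceeded untreated cells by 1.96 (adjusted p = 0.00087) and Ddit3 by 1.11 (adjusted p = 0.00029), and 4 of the 15 ATF4 genes passed there, where 0 of the 9 members did. The difference between these counts was not tested.

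A list of 6 genes held the eIF2α kinases Eif2ak1 to Eif2ak4, eIF2α itself (Eif2s1) and the phosphatase subunit Ppp1r15b. It gave no change past the cut-offs with CYT or in IL-1βlow + CYT against CYT, with medians of 0.08 and -0.13. The 6 measured genes of glutathione synthesis and use gave none either, with medians of 0.22 and -0.34. In both lists single genes had small differences with a low adjusted p. Eif2ak3, which encodes the kinase PERK, was at 0.49 with CYT (adjusted p = 0.014) and -0.72 in IL-1βlow + CYT against CYT (adjusted p = 0.0016), and Gss, which encodes glutathione synthetase, was at 0.73 (adjusted p = 0.00013) and -0.63 (adjusted p = 0.00062). These genes were named after their values were seen.

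**Figure D4:**
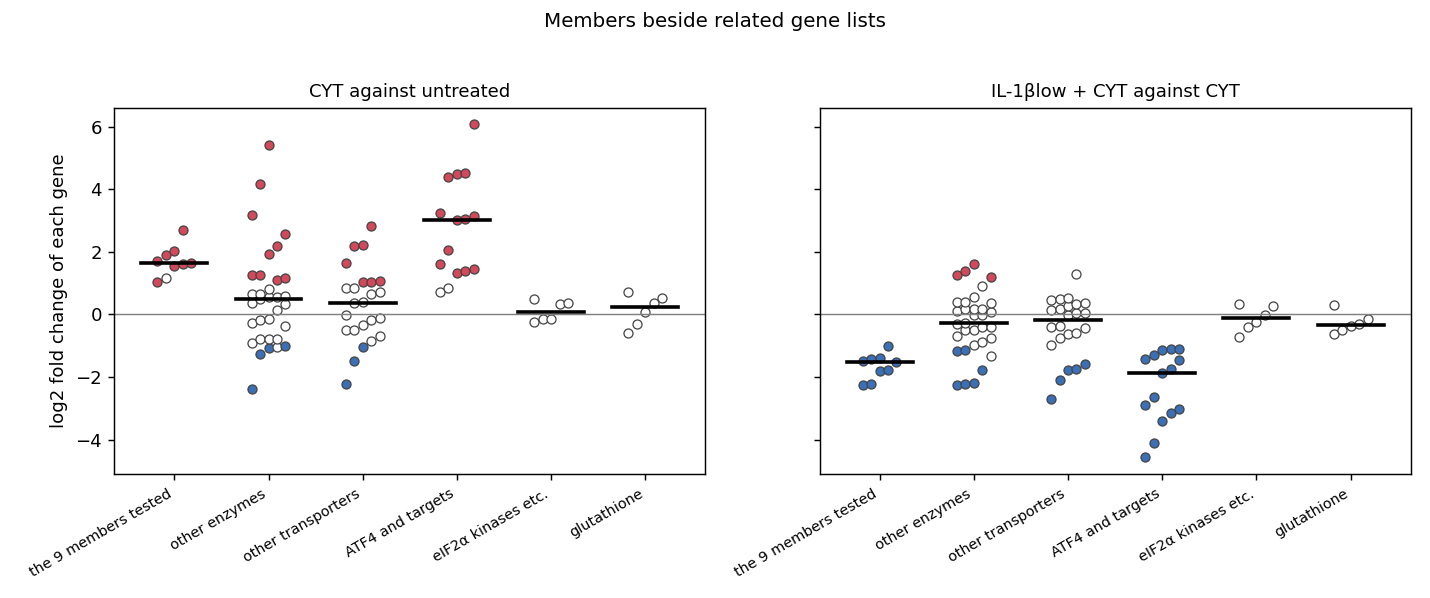
Log2 fold change (y axis) of every tested gene in the members and 5 related lists (x axis), with CYT against untreated cells on the left and IL-1βlow + CYT against CYT on the right; filled points passed the cut-offs, open points did not, and bars are medians. The members lie near their median of 1.63 on the left and -1.51 on the right, the ATF4 list reaches further (medians 3.02 and -1.87), and other enzymes and carriers spread on both sides of 0.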

How the data were processed

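RNA-seq was measured in 12 INS-1E libraries. The authors used FastQC for quality control, rfastp for trimming, Rsubread for alignment to mRatBN7.2 and featureCounts for counting, and the deposited table holds raw counts per gene symbol, with no normalization. Each of the 12 columns was matched to its sample by name, and 0 columns were left unused. Replicates of a group differed by more than counting noise (chi-square per degree of freedom 7.11 to 27.5), so each counts as 1 library. No molecular identifiers are described, so reads may repeat molecules, and floors of 3 counts cover counting error only.

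R 4.3.3 and edgeR 4.0.16 were used. Genes were kept if 2 or more libraries exceeded a CPM of 1, then scaled by TMM and fitted in one quasi-likelihood model over all libraries, with 8 residual degrees of freedom. Pairwise comparisons and the interaction were contrasts of that fit. Passing required an adjusted p (Benjamini-Hochberg) under 0.01 and a log2 fold change above 0.6 for IL-1βlow against untreated cells and above 1 otherwise, as in the study, which used exactTest. An exact permutation test of 3 against 3 libraries cannot go below p = 0.1. P-values measure the spread between these libraries. Replicate numbers come from the labels. Deviations of same-numbered libraries from their group means correlated above 0.1 in every pair for 3 of the 6 pairs of groups, those without untreated cells.

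The members and gene lists were chosen with earlier results of these data known. All members are reported. From each list, up to 3 passing genes with the largest rise and the largest fall with CYT, and in IL-1βlow + CYT against CYT, and any gene passing with IL-1βlow alone, are named where mean log2 CPM exceeded 0, plus Atf4. A gene that meets this rule is not reported here. The 5 genes most like the members needed a mean log2 CPM above 2.

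Alternatives were RLE factors, DESeq2 1.42.0, exactTest, no filter, a floor of 10 counts per library, a fit of the 2 compared groups alone, the replicate number as a block, an adjusted p under 0.05 without fold minimum, leaving out each library, and, added after seeing the data, library totals without scaling factors. Sequences and overlaps come from RefSeq on GRCr8, and no mRatBN7.2 annotation was used here.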

Additional observations from a re-analysis of the deposited data

Results flagged for a closer look

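For 8 members the response to CYT differed between cells with and without IL-1βlow by the interaction term of edgeR's quasi-likelihood fit, with Benjamini-Hochberg adjustment over all genes. The response with IL-1βlow minus that without it was -1.41 for Asns (adjusted p = 1.4e-06), -1.62 for Psat1 (adjusted p = 3.3e-06) and -1.96 for Psph (adjusted p = 2.6e-06) on the log2 scale. It was -1.52 for Shmt2 (adjusted p = 1.2e-06), -2.26 for Mthfd2 (adjusted p = 6.7e-07) and -1.08 for Aldh18a1 (adjusted p = 6.6e-05). For the carriers it was -2.25 for Slc3a2 (adjusted p = 1.4e-07) and -1.85 for Slc7a5 (adjusted p = 3.0e-05). In each of the 8 genes all 3 CYT libraries lay above all 3 IL-1βlow + CYT libraries, and the share of all genes so separated was not counted. Slc7a11 was at -1.45 (adjusted p = 0.077) and passed only without the filter on low counts (-1.50, adjusted p = 0.0059).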

How the results depend on the processing

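Of 63 results, each a member in a comparison, 53 kept their side of the cut-offs under every alternative run and 51 kept their sign. Of 1298 recomputed values, 13 lost and 19 gained their call. The sign differed in 30 values of 12 results, none of which passed as reported, and in 0 values of results that passed. Most of the changes concerned Aldh18a1, near the fold minimum, and Slc7a11, near the detection limit, which has no value with at least 10 counts required in every library. With an adjusted p under 0.05 and no fold minimum, 2 members passed in IL-1βlow + CYT against untreated cells and 1 in IL-1βlow + CYT against IL-1βlow. That setting also raised the counts over all genes, from 3096 to 8926 for CYT against untreated, from 62 to 193 for IL-1βlow against untreated, from 1785 to 7267 for IL-1βlow + CYT against CYT, from 858 to 3124 for IL-1βlow + CYT against untreated, from 556 to 1855 for IL-1βlow + CYT against IL-1βlow, from 2731 to 8363 for CYT against IL-1βlow and from 1530 to 5337 for the interaction. For IL-1βlow against untreated cells, the 62 genes became 229 without a filter, 139 with DESeq2, 137 with exactTest and 16 to 29 without one untreated library or IL-1βlow replicate 1 or 2. The cause was not tested.

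With the replicate number as a block, 141 of all genes passed for IL-1βlow against untreated cells, in place of 62. Of the members 9 passed in CYT against untreated cells and 8 in CYT against IL-1βlow, in place of 8 and 7, each by the addition of Slc7a11 (adjusted p = 0.00998 and 0.0087), and no other call on a member changed. Same-numbered libraries correlated by 0.191 on average in their deviations from group means (-0.188 to 0.520). All 3 same-numbered pairs exceeded 0.1 between IL-1βlow, CYT and IL-1βlow + CYT cells, but not between untreated cells and any of these, and 9 of 12 libraries correlated best with their own number. The values reported come from the fit without a block, which follows the study's methods, and the calls with the block are given beside them where they differ.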
